A study of Mus musculus with 6 samples.

Results

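Kit, Kitl, Ano1 and Etv1, genes used to define the pacemaker cells of the gut wall or their ligand, were followed through a single-cell atlas of the fetal mouse small intestine. They were taken by gene symbol, and all 4 were among the 24568 symbols of the deposited matrix. The tissue came from Pdgfra-H2BGFP embryos on the C57/BL6 background, in which nuclear GFP reports the Pdgfra gene. No treatment or further genotype was named. Embryos of E13.5 (4 pooled replicates), E14.5 (3), E15.5 (2), E16.5 (2) and E18.5 (2) were cut into 2.5 mm pieces, and the cells were marked by MULTI-seq lipid barcodes and captured on the 10x platform. The 6 samples form 4 groups: all live cells at E15.5 and E16.5 in 2 lanes, all live cells at E13.5, E14.5 and E18.5 in 2 lanes, and 1 enriched sample for each set of ages. Live cells were sorted as negative for DAPI and Ter119. The enriched samples held cells sorted for CD31, CD45, Epcam or high PDGFRA reporter signal.

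The 13127 cell barcodes carry 6 suffixes that no label ties to a sample. The matrix was therefore treated as 1 pooled sample without replicates, and no age, segment or sort is compared here. The suffixes were used as technical sets, named A1, A2 and A3 for one ending and B1, B2 and B3 for the other. After filtering, 12629 cells remained, between 1177 and 2507 per set, with median depths from 3553 to 13574 UMIs (unique molecular identifiers, each standing for 1 captured transcript). All intervals given are 95% and cover counting error only. Thinned to 2000 UMIs per cell, 62.6% to 98.5% of the cells of a set in ending A and 7.13% to 10.5% in ending B held a UMI of an enterocyte gene, although no cluster was epithelial. Its part in the levels below was not tested. Any pair of sets shared at most 3 barcode sequences.

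Interstitial cells of Cajal are the pacemakers of gut smooth muscle. KIT is their receptor tyrosine kinase, and its ligand, the stem cell factor encoded by Kitl, is made by neighbouring cells and keeps them alive. ANO1 is the calcium-activated chloride channel that carries the pacemaker current, and ETV1 is an ETS-family transcription factor that is stabilised by KIT signalling and maintains the pacemaker programme. Each of these genes is also used elsewhere: KIT in mast cells and melanocytes, ANO1 in secretory epithelia, and ETV1 in neurons and other mesenchyme.

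In the GENCODE M21 annotation of mm10, Kit lies at chr5:75574916-75656722 on the plus strand and Kitl at chr10:100015630-100100416 on the plus strand. Ano1 lies at chr7:144588549-144751974 on the minus strand and Etv1 at chr12:38779380-38870484 on the plus strand. All 4 are protein-coding. The upstream sequences of the 3 genes that mark the pacemaker cells themselves are shown because Etv1 encodes a factor of the ETS family, whose members bind around the core GGAA. The promoter windows come from RefSeq (GRCm38.p6, the mm10 build), and bases within GENCODE exons were left off. Each is written 5′ to 3′ on the strand of its gene, and capitals mark GGAA on either strand.
Kit (chr5:75574737-75574915, plus strand): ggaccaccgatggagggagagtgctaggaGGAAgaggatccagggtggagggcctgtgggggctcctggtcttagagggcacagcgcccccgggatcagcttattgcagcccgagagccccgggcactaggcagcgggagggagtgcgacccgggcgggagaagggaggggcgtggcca
Ano1 (chr7:144738593-144738823, minus strand): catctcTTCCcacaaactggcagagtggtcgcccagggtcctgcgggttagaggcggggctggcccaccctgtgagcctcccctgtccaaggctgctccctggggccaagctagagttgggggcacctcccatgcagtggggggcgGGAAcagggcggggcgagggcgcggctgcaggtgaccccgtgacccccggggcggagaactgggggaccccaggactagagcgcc
Etv1 (chr12:38779832-38780081, plus strand): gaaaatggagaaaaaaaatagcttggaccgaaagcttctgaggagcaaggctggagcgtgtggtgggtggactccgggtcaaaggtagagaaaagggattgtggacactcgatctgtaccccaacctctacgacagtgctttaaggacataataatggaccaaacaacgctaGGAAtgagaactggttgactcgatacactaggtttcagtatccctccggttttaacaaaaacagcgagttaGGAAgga
The Kit sequence of 179 bases holds 1 match, that of Ano1 (231 bases) holds 2 and that of Etv1 (250 bases) holds 2. Over full windows of 250 bases, 93.4% of 32851 RefSeq promoters hold GGAA on either strand, so these matches are what nearly every promoter shows. The longer ETS-type sequence CCGGAA, which contains GGAA, was in 12.0% of all windows. Among the windows of the 4 genes it was found only in that of Kitl, 77 bases before the RefSeq start, which is inside the GENCODE gene and not in the 59 bases upstream of it. The Ano1 and Etv1 windows also lie inside the GENCODE genes, at starts downstream of the first one annotated there.

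Kit, the receptor, was rare in every set. In sets A1, A2 and A3 its summed level was 7.68, 6.54 and 5.28 CPM (its UMIs scaled to all UMIs of those cells), and in B1, B2 and B3 it was 5.98, 3.14 and 3.15 CPM. The kept cells held 595 Kit UMIs in all, or 6.05 CPM (interval 5.58 to 6.56). In the order of the sets, each neighbouring pair had overlapping intervals. Further apart, A1 (6.74 to 8.73) and A2 (5.64 to 7.55) lay wholly above B2 (2.19 to 4.37) and B3 (2.06 to 4.62). B1 (4.56 to 7.70) also lay above B2. After thinning every cell to 2000 UMIs, a Kit UMI was found in 121 of 12588 cells (0.961%, Clopper-Pearson interval 0.798 to 1.15), while 3.72% of cells had one at full depth.

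Kitl, the ligand, was at 61.1 CPM in A1 and 62.1 CPM in A2. A3 had 26.7 CPM, and the sets of ending B had 23.9, 25.3 and 13.2 CPM in order of their number. A1 and A2 overlapped each other and lay above A3, B1 and B2, which also overlapped, and B3 lay below all others. The sets A3 and B3 were mostly PDGFRA-high mesenchyme (1025 and 1691 cells), the class described further on in which Kitl was low. At 2000 UMIs, 6.48% of cells (6.06 to 6.93) held a Kitl UMI, against 22.7% at full depth.

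Ano1, the chloride channel, reached 18.0 CPM (15.4 to 20.9) in A3, above A1 at 9.04 and A2 at 8.25 CPM. In ending B it was at 6.18 CPM in B3, 2.51 in B2 and 0.897 (0.410 to 1.70) in B1, where 9 UMIs were counted in 2207 cells. At 2000 UMIs, 1.22% of cells (1.03 to 1.42) had an Ano1 UMI.

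Etv1, the transcription factor, was nearly level across the sets, at 99.1, 80.9 and 107 CPM in A1, A2 and A3 and 103, 103 and 107 CPM in B1, B2 and B3. A2 (77.6 to 84.2) was the one set below its neighbour in the order. At 2000 UMIs, 16.9% of cells (16.2 to 17.6) had an Etv1 UMI, with a range over sets of 13.8% to 18.2%. No class of cells found here is known to lack these genes, so no background share from free RNA can be set beside these shares. For Ano1, the lowest share of any set was 0.137% in B1.

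**Figure D1:**
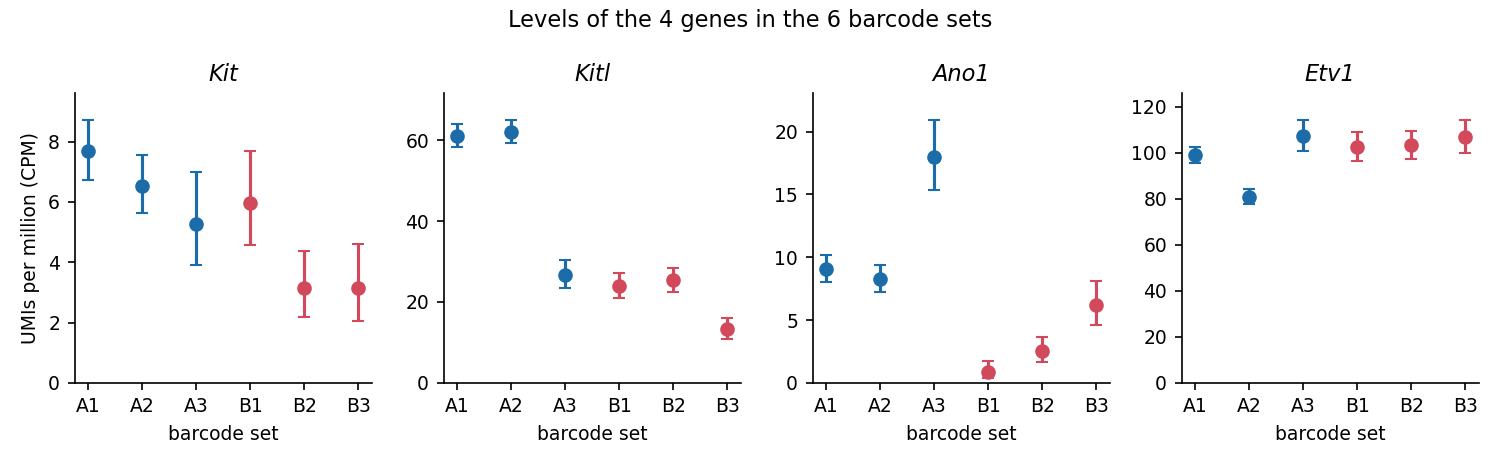
Level of each gene in CPM (vertical axes, starting at 0) in the 6 barcode sets; points are sums over kept cells, bars exact Poisson 95% intervals, blue ending A and red ending B. Kitl stands at 61.1 and 62.1 CPM in A1 and A2, Ano1 at 18.0 CPM in A3, and Etv1 between 80.9 and 107 CPM throughout.

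Clustering was run within each ending and gave 16 clusters in A and 11 in B. The 4 genes and the pacemaker list described further on were left out of the genes used for it. Levels by cluster are a description. No cluster carried the markers of interstitial cells of Cajal: of Kit, Ano1, Etv1, Gpr20, Prkcq, Thbs4 and Cacna1h, at most 1 was raised 4-fold in any cluster, and 3 were required. None met the rule for smooth muscle, mast cells, melanocytes, epithelium, endothelium or immune cells either, although the enriched samples had been sorted for several of these. PDGFRA-high mesenchyme made up 6 clusters (3641 cells, 28.8%) and 20 were other mesenchyme (8904 cells, 70.5%). The name rests on at least 3 of 8 markers and not on Pdgfra alone. Cluster B.6 had 328 CPM of Pdgfra and counts as other mesenchyme, while PDGFRA-high cluster B.2 had 279 CPM. One haemoglobin-rich cluster of 84 cells stayed unnamed.

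Kit was low in every cluster. Among the 15 clusters of at least 50 cells in ending A it ran from 1.40 to 14.1 CPM with a median of 6.22, and among the 11 in ending B from 1.12 to 6.41 CPM with a median of 4.62. The highest value rested on 6 UMIs in the 55 cells of cluster A.14, and its interval (5.19 to 30.8) overlapped those of all the others of at least 50 cells in ending A except A.13. Next came the PDGFRA-high cluster A.12 at 9.87 CPM (5.95 to 15.4), then A.8, led by replication genes such as Cdc6 and Mcm3, at 9.52 CPM (7.13 to 12.4), and cluster A.3, at 9.07 CPM (6.98 to 11.6).

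Ano1 was high in a few clusters of different kinds. It was highest in A.0 at 32.8 CPM (27.8 to 38.5), a PDGFRA-high cluster led by Slco2a1, Npnt and Il1rl1. B.1, the PDGFRA-high cluster that shares Npnt, Slco2a1 and Glp2r among its leading genes, was the highest of ending B, at 12.0 CPM (8.63 to 16.3). The other PDGFRA-high clusters lay below the one of their own ending without overlap, at 1.94 CPM in A.11, 7.80 in A.12, 1.31 in B.2 and 2.61 in B.3. Outside this class, Ano1 was at 28.3 CPM (14.6 to 49.4) in the 55 cells of A.14, with 12 UMIs. It was at 23.4 CPM (19.9 to 27.2) in A.3, led by Ccnd1, Ung and Igfbp2, with Acta2, the smooth muscle actin, at 1367 CPM. Prkcq, a kinase of the pacemaker marker list, was the only marker of interstitial cells of Cajal raised 4-fold in A.3. It is rare, with 96 UMIs in all kept cells (0.977 CPM). Ano1 was at 12.9 CPM in A.4, a cluster led by histone genes, and at 1.90 CPM in A.9, led by the fibroblast genes Dpt and Aspn.

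Kitl and Etv1 had other patterns. Among clusters of at least 50 cells, Kitl was highest in A.14 (153 CPM), A.5 (147 CPM) and A.13 (126 CPM), all outside the PDGFRA-high class. A.5 and A.13 have Col6a5 and the leptin receptor Lepr among their leading genes. The lowest in each ending were the PDGFRA-high clusters A.11 (11.6 CPM) and B.2 (3.93 CPM). Both were near the top for Etv1, at 175 CPM (155 to 197) in A.11 and 160 CPM (146 to 175) in B.2, beside B.7 at 179 CPM (161 to 198). Etv1 was lowest in A.9 at 37.0 CPM (30.0 to 45.1).

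**Figure D2:**
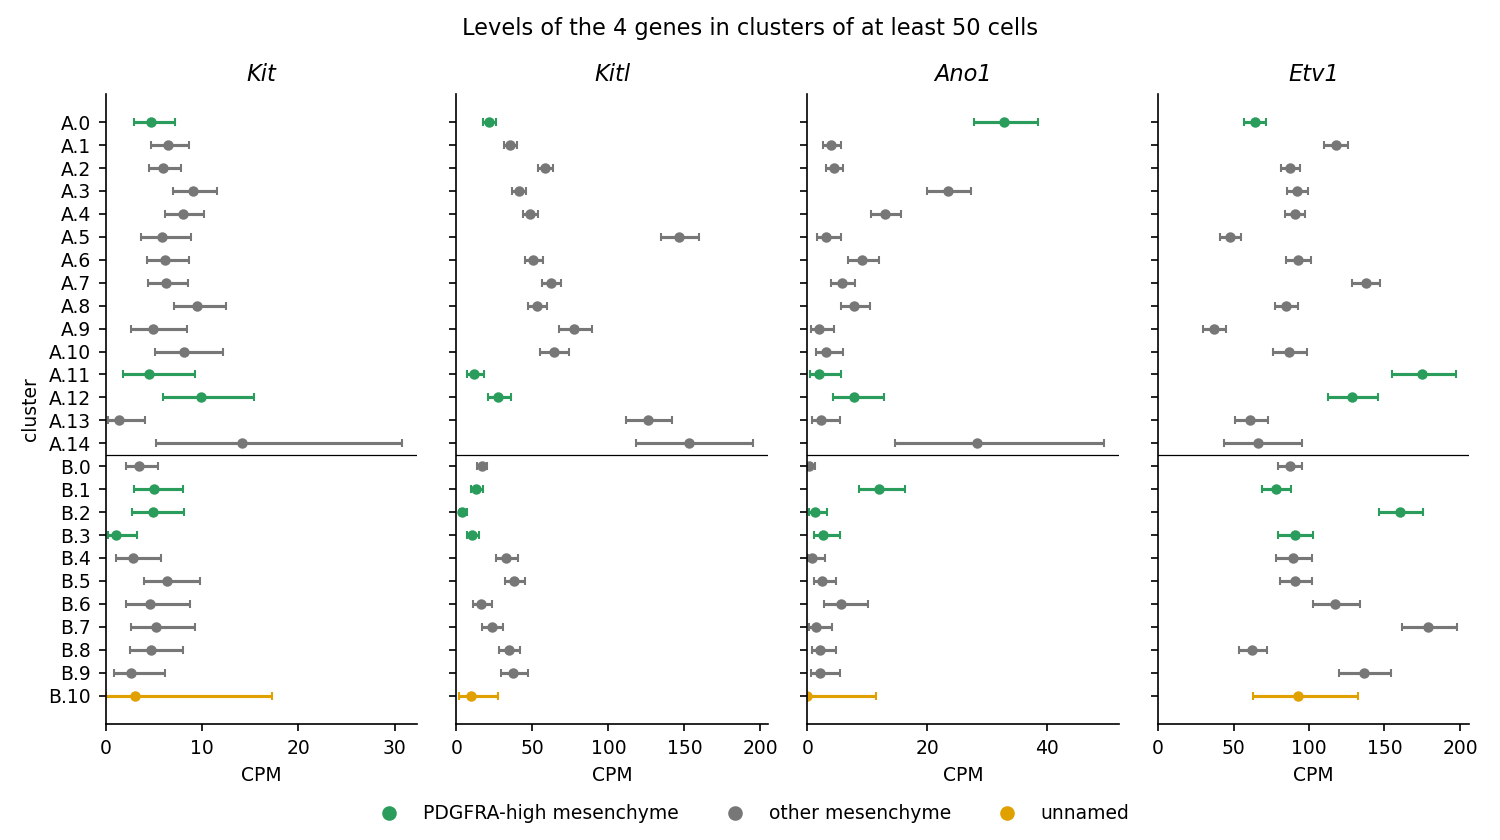
Level of each gene in CPM (horizontal axes, starting at 0) in the clusters of at least 50 cells, with the line dividing endings A and B; bars are exact Poisson 95% intervals and colours give the class. Ano1 peaks in A.0, A.3, A.14 and B.1, Kitl in A.5, A.13 and A.14, and Etv1 in A.11, B.2 and B.7, while Kit intervals overlap widely.

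As a whole, PDGFRA-high mesenchyme held more Ano1 and less Kitl than other mesenchyme in all 6 sets. PDGFRA-high cells had Ano1 levels of 27.7, 19.5 and 20.7 CPM in A1, A2 and A3 and 1.43, 6.69 and 6.40 CPM in B1, B2 and B3. Other mesenchyme had 8.80, 8.11 and 7.76 CPM and 0.826, 1.82 and 5.56 CPM in the same order, which gives a log2 ratio within sets of 1.21 (0.78 to 1.63). The intervals of the classes overlapped in A2, B1 and B3, and A1 and A2 held 50 and 39 PDGFRA-high cells. Kitl was at 20.1, 22.3 and 20.8 CPM in A1 to A3 and 9.26, 9.73 and 9.03 CPM in B1 to B3 in the PDGFRA-high class. In other mesenchyme it was at 61.7, 62.6 and 49.1 CPM and 26.4, 28.5 and 25.03 CPM, and the intervals overlapped in no set. The log2 ratio was -1.43 (-1.69 to -1.16). Kitl levels within a class were closer between sets of one ending than the levels over all cells. For Kit the log2 ratio was 0.25 (-0.20 to 0.69), higher in 4 sets and lower in 2, and the intervals of the classes overlapped in every set. Etv1 differed in opposite directions between sets. It was higher in PDGFRA-high cells of B2 (133 against 98.4 CPM) and lower in those of A3 (101 against 131 CPM) and B3 (101 against 125 CPM), each without overlap, and the ratio over all sets was -0.02 (-0.13 to 0.08). Cells of 1 pooled sample are not replicates, and the clusters come from the same counts, so these ratios carry no test.

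Whether pacemaker genes fell in the same cells was asked at matched depth, since deep cells show more genes. At 2000 UMIs per cell the question could not be answered for Kit and Ano1. Of 121 Kit cells, 1 also had Ano1 (0.826%), against 1.22% of cells without Kit, and the odds ratio over sets was 0.59 with an interval of 0.08 to 4.33. A second random draw of 2000 UMIs gave 3 such cells and an odds ratio of 2.02 (0.63 to 6.46).

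The cells of ending A are deep enough for 10000 UMIs, which leaves 3469 of them and leaves out 2247. There, Kit was seen in 6.01%, 5.37% and 4.98% of cells in A1, A2 and A3, and Ano1 in 7.69%, 7.20% and 3.62%. In A1, 15 of 100 Kit cells had Ano1 (15.0%), against 7.22% of cells without Kit. In A2 it was 18 of 85 (21.2%) against 6.41%, and in A3 0 of 11 against 3.81%. Ano1 was thus seen more often in Kit cells in the 2 large sets, and 11 Kit cells in A3 are too few to tell (the Clopper-Pearson upper bound for 0 of 11 is 28.5%). The odds ratio was 2.84 (1.90 to 4.23), and 2.04 (1.35 to 3.09) in a second draw. With all UMIs and 4 depth bins within each of the 6 sets, which involves no random draw, it was 1.90 (1.43 to 2.52). It was 2.61 (1.72 to 3.98) with each cluster of each set as its own stratum, 2.83 (1.89 to 4.25) within other mesenchyme alone, and 2.44 (1.58 to 3.75) without the cells of at least 3 Kit UMIs described further on.

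Etv1 was seen more often in cells with Kit or with Ano1 at some depths and draws and not at others. At 2000 UMIs, 28.1% of Kit cells had Etv1 against 16.8% of cells without Kit, with the higher share in Kit cells in 6 of 6 sets and an odds ratio of 2.00 (1.34 to 2.98). It was smaller at other depths and draws: 1.54 (0.99 to 2.37) in the second draw, 1.21 (0.90 to 1.63) at 10000 UMIs in ending A, where the share was higher in Kit cells in A1 only (67.0% against 56.8%, with 50.6% against 50.7% in A2 and 54.5% against 63.3% in A3), and 1.24 (1.02 to 1.52) with depth bins. For Ano1 and Etv1 the odds ratio was 1.26 (0.85 to 1.88) at 2000 UMIs, 1.08 (0.73 to 1.61) in the second draw, 0.860 at 3000 UMIs, 1.47 (1.13 to 1.93) at 10000 UMIs and 1.22 (1.03 to 1.46) with depth bins. At 10000 UMIs, 63.2% of 250 Ano1 cells had Etv1, against 54.0% of cells without Ano1.

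For Kitl, the ligand, the odds ratios with the other 3 genes at 2000 UMIs, at 10000 UMIs and with depth bins all had intervals that included 1. At 10000 UMIs it was seen in 40.3% of Kit cells and 37.8% of cells without Kit, an odds ratio of 1.11 (0.82 to 1.49). With Ano1 it was 1.08 (0.83 to 1.41), and with Etv1 1.01 (0.88 to 1.16). The value for Etv1 was 1.43 at 1000 UMIs and 1.23 at full depth without depth bins, both outside the interval at 2000 UMIs (0.82 to 1.21).

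**Figure D3:**
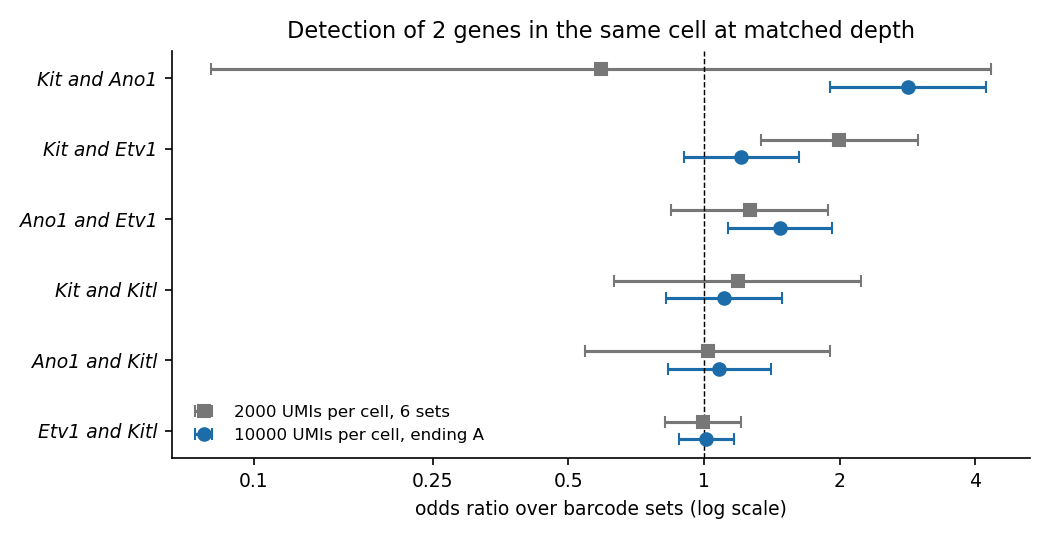
Odds ratio (log scale) for seeing the second gene of a pair in cells with the first against cells without it, combined over barcode sets, with 95% intervals; squares are 2000 UMIs per cell in 6 sets and circles 10000 UMIs per cell in ending A. Kit and Ano1 stand at 2.84 (1.90 to 4.23) at the greater depth, and pairs with Kitl lie near 1.

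Cells with Kit, Ano1 and Etv1 together were few. At 2000 UMIs there was 1 in 12588 cells, where the product of the shares in each set gives 0.275. At 10000 UMIs there were 24 in 3469 cells against 7.77 from the product, a ratio of 3.09 (1.98 to 4.598), and 19 against 8.68 in the second draw, a ratio of 2.19 (1.32 to 3.42).

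The 64 cells with at least 2 of the 3 genes at 2000 UMIs were compared with 10252 cells with none. Few other genes differed by much. Of 7126 genes that reached 20 CPM in either class, 67 were 2-fold higher (0.94%) and 82 were 2-fold lower (1.15%). Of the 24 genes of the pacemaker list, such as the receptor Gpr20, the ryanodine and inositol trisphosphate receptors and the cGMP-producing guanylate cyclase, 16 reached 20 CPM, and 0 of these were 2-fold higher or lower. Their median log2 ratio was 0.06, against 0.03 over all genes. Slc12a2, the sodium-potassium-chloride cotransporter that loads pacemaker cells with chloride, was at 172 against 93.4 CPM, a log2 ratio within sets of 0.46 (0.16 to 0.76), higher in 5 of 6 sets. Gpr20 was at 26.2 against 18.1 CPM (0.52, interval -0.24 to 1.28), and the gap junction gene Gjc1 had a ratio of 0.19. The lowest were Stim1 at -0.31, Cacna1g at -0.25 and Gucy1a1 at -0.08, all with intervals that included 0.

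Of 16 measured genes of KIT signal transduction and of 6 ETS factors and feedback inhibitors, 0 passed 2-fold, with median log2 ratios of 0.07 and 0.11. Of 12 smooth muscle genes, 0 passed 2-fold and 7 had an interval above 0, led by Foxp2 at 0.72 and Actg2 at 0.64. Over all 7126 genes, 468 had an interval above 0 and 265 had one below 0. Acta2, the most abundant gene of the smooth muscle list, had a ratio of 0.45 (0.32 to 0.58) but was higher in 2 of 6 sets and lower in 4. Foxp2 and Actg2 were each higher in 5 of 6. The summed level of the list, in which Acta2 weighs most, was higher, with a log2 ratio of 0.36 (0.28 to 0.43). Leaving out set A2 lowered that value to 0.17. Erythroid markers moved the other way and further, with a summed log2 ratio of -0.60 (-0.82 to -0.38) and levels of 311 against 638 CPM, and their part in the other differences was not tested. Kitl was at 52.4 against 46.6 CPM, and its ratio was 0.21 (-0.33 to 0.75). The cycling genes Mki67 and Top2a were lower, with a summed log2 ratio of -0.25 (-0.40 to -0.10).

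Beyond the lists, the genes with the largest ratios and the same sign in all 6 sets were all under 2-fold on the higher side. They included 0610009B22Rik at 0.97, Leprotl1 at 0.88, E2f6 at 0.80, the co-repressor Tle4 at 0.70 and the growth factor Igf2 at 0.66 (0.48 to 0.84). Among the lower ones were S100a10 at -1.64, Fibin at -1.54, Thbs2 at -1.33, the haemoglobin gene Hba-a2 at -1.28, the collagen gene Col14a1 at -1.096 (-1.36 to -0.83), and B2m at -0.99.

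Kit UMIs were unevenly spread over cells. Of the 595 UMIs, 111 (18.7%) lay in 24 cells with at least 3 each, where an even spread by depth would give 0.810 such cells. This class was defined after the counts had been seen. The cells came from A1 (11), A2 (7), B1 (5) and B3 (1), and none from A3 or B2. They held 3 to 10 Kit UMIs, with a median of 4. They fell in 16 clusters with at most 3 in any, 22 in other mesenchyme and 2 in PDGFRA-high mesenchyme. The clusters were made in each ending without the 4 genes and the pacemaker list, and several were led by cell cycle genes. So few cells could hardly form a cluster of their own, and their spread cannot tell whether they are 1 kind of cell. They were deep cells, with 1 of 24 below the median depth of its set.

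Every one of the 24 Kit-rich cells had Etv1. Their Etv1 counts ran from 1 to 15 with a median of 4.5, while Etv1 was seen in 41.9% of the 12159 cells without Kit, which are shallower (55.0% of those in ending A). By set, Etv1 was at 237 CPM in Kit-rich cells of A1 against 97.0 CPM without Kit, at 365 against 79.4 CPM in A2, at 517 against 99.7 CPM in B1 and at 408 against 107 CPM in the 1 cell of B3. The Kit-rich value was the higher in all 4 sets, and the intervals overlapped only for the B3 cell. The log2 ratio within sets was 1.75 (1.49 to 2.01), and 1.73 with depth bins. Leaving out A1 gave 2.23.

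Ano1 was seen in 8 of the 24 cells, all 8 among the 18 of ending A (44.4%), against 9.12% of the shallower cells without Kit in that ending (median 20756.5 against 11293.5 UMIs). It was at 31.8 against 8.76 CPM in A1 and at 54.3 against 7.28 CPM in A2, with intervals that did not overlap. The 6 cells of ending B had 0 Ano1 UMIs, which allows up to 67.3 CPM. The log2 ratio was 2.25 (1.48 to 3.02), and 2.07 with depth bins. Kitl was at 77.3 against 61.1 CPM in A1, 62.1 against 62.0 CPM in A2 and 0 in the cells of ending B, a log2 ratio of 0.16 (-0.41 to 0.73). The interval of the ratio thus lay above 0 for Etv1 and Ano1, and for Kitl it included 0. These intervals leave out the spread between cells, and the class was chosen after the counts had been seen. For Ano1 the 6 cells of ending B are too few to tell.

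Etv1 and Ano1 were also higher in cells with more Kit UMIs. Etv1 was at 94.7 CPM in cells with 0 Kit UMIs, 100 with 1, 127 with 2 and 308 (255 to 368) with at least 3. Ano1 was at 7.34, 12.9, 28.0 and 35.6 (19.5 to 59.7) CPM over the same steps. For Etv1 the interval of the highest step lay above all others, and for Ano1 the intervals of the steps above 0 overlapped between neighbours. Kitl was at 45.7, 56.4, 43.0 and 63.6 CPM, with no order. Cells with more Kit UMIs are deeper (median 5491, 12004, 14177.5 and 17120.5 UMIs) and come more from ending A, and these levels are not corrected for the sets. Within sets, cells with exactly 1 Kit UMI differed from those with 0 by a log2 ratio of 0.14 for Etv1 and 0.64 for Ano1.

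**Figure D4:**
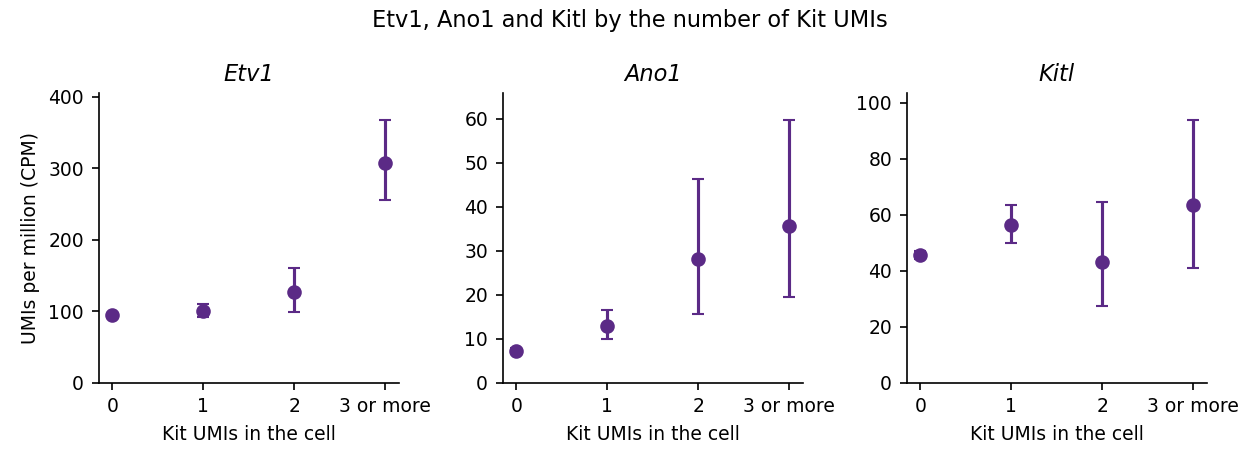
Levels of Etv1, Ano1 and Kitl in CPM (vertical axes, starting at 0) in cells grouped by their number of Kit UMIs, over all sets; bars are exact Poisson 95% intervals. Etv1 stands at 308 CPM and Ano1 at 35.6 CPM in cells with at least 3 Kit UMIs, against 94.7 and 7.34 CPM without Kit, and Kitl intervals overlap except between cells with 0 and 1.

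Other genes also passed 2-fold in the Kit-rich cells. Of 7231 genes that reached 20 CPM in either class, 221 were 2-fold higher (3.06%) and 232 were 2-fold lower (3.21%). The number past 2-fold in either direction was 453 at this minimum, 1798 at 5 CPM and 125 at 50 CPM. These counts rest on the ratio alone and require no interval, and in so few cells counting error can carry a gene past 2-fold. At any size of ratio, 681 of the 7231 genes had an interval above 0 and 368 had one below 0. Ratios are computed within sets, so a gene can have a ratio above 0 with similar levels over all cells.

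Of the 16 pacemaker list genes that reached 20 CPM, 2 were 2-fold higher and 0 were 2-fold lower. These were Slc12a2, with a log2 ratio of 1.18 (0.70 to 1.65), higher in 3 of 4 sets although at 91.5 against 98.0 CPM over all cells, and Pde3a, a phosphodiesterase, at 96.6 against 37.0 CPM (1.03, interval 0.57 to 1.49, higher in all 4 sets). Kcnj8, a subunit of ATP-sensitive potassium channels that is also a pericyte marker, was at 102 against 45.7 CPM (0.95, interval 0.50 to 1.40). Of the other markers of interstitial cells of Cajal, Gpr20 was at 35.6 against 17.8 CPM (0.74, interval -0.02 to 1.497) and Thbs4 at 71.2 against 38.6 CPM (0.57, interval 0.03 to 1.103). Prkcq and the calcium channel gene Cacna1h lay under 20 CPM. Prkcq had 6 UMIs in 4 cells, 15.3 against 0.887 CPM, and was higher in all 4 sets, and Cacna1h was at 17.8 against 10.1 CPM (0.97, interval -0.11 to 2.04). The lowest were Cacna1g, a T-type calcium channel subunit, at -0.998 (-2.41 to 0.42), Itpr1 at -0.70 and Ano6 at -0.42. The list's median was 0.25 against 0.04 over all genes, and its summed level had a log2 ratio of 0.16 (0.04 to 0.28).

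Of 17 KIT signalling genes that reached 20 CPM, 0 were 2-fold higher and 1 was 2-fold lower, Pik3r1, a regulatory subunit of PI3 kinase, at 33.1 against 118 CPM (-1.33, interval -2.12 to -0.55). The highest were the adaptor Gab2 at 0.66 and the ubiquitin ligase Cbl at 0.57, both with intervals that included 0. Under 20 CPM, Stat5a, a transcription factor downstream of cytokine and growth factor receptors, was at 10.2 against 3.92 CPM (1.82, interval 0.39 to 3.25), with 4 UMIs, higher in 2 sets and lower in 2. Among the 7 measured ETS and feedback genes, Etv5, a relative of Etv1 in the PEA3 group, was the 1 that passed 2-fold, at 28.0 against 6.27 CPM (2.07, interval 1.20 to 2.93). It was higher in 2 of 4 sets and lower in 2, and rested on 11 UMIs in 5 cells. The feedback inhibitors Spry1 at 0.40, Dusp6 at -0.30 and Spry2 at -0.51 had intervals that included 0.

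Of 13 measured smooth muscle genes, 2 were 2-fold higher: Hmcn2, an extracellular matrix gene, at 30.5 against 2.06 CPM (3.66, interval 2.82 to 4.50), and the transcription factor Foxp2 at 198 against 55.9 CPM (1.61, interval 1.28 to 1.93). Des, the muscle intermediate filament, was at 66.1 against 39.4 CPM (0.77, interval 0.21 to 1.32). Among the contractile genes, Acta2 had a ratio of 0.27 (0.13 to 0.41), Myh11 of 0.32 (-0.12 to 0.76) and Tagln, lower in all 4 sets, of -0.56 (-0.87 to -0.24). Pdgfra was lower in all 4 sets, at 117 against 242 CPM (-0.44, interval -0.86 to -0.02). Mki67 (-0.72) and Top2a (-0.33) were each lower in 2 of 4 sets.

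Markers of other KIT-bearing cells were at 0. None of the 8 mast cell markers and none of the 5 melanocyte markers in the matrix had a UMI in the 24 cells, against 1.82 and 3.33 CPM for the summed lists in cells without Kit. A count of 0 in the 24 cells allows up to 7.63 CPM, so it cannot be told from either of these levels. Over all kept cells the mast cell gene Cpa3 was at 0.366 CPM and the melanocyte gene Pmel at 0.671 CPM. Glial markers summed to 30.5 against 23.8 CPM and enteric neuron markers to 122 against 89.6 CPM. Of the latter, Hand2, which mesenchyme also expresses, had 39 UMIs (99.2 against 36.6 CPM). Within sets, the summed log2 ratio was 0.14 (-0.68 to 0.96) for glial markers, 0.41 (0.01 to 0.82) for neuron markers, -0.12 (-0.79 to 0.55) for epithelial markers (45.8 against 80.9 CPM over all cells) and -0.38 (-1.38 to 0.62) for endothelial markers (20.3 against 36.4 CPM). It was 0.64 (-0.09 to 1.38) for myeloid markers, although they were at 38.1 against 42.6 CPM over all cells. The macrophage lysozyme gene Lyz2 had 7 UMIs in 4 of the cells, 17.8 against 7.39 CPM (1.76, interval 0.68 to 2.84). Erythroid markers were lower, at 112 against 632 CPM (-1.05, interval -1.48 to -0.62). The part of these transcripts in the other differences was not tested. Col1a1, a collagen of mesenchyme, was seen in 24 of 24 cells and Acta2 in 22.

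Beyond the lists, genes were ranked by ratio among those with the same sign in all 4 sets with such cells. In B3 the sign rests on 1 cell. The higher genes were led by 4. Pcdh17, a protocadherin, was at 78.8 against 5.08 CPM (4.55, interval 4.01 to 5.09), and was seen in 12 of 24 cells. Osr1, a transcription factor of gut and urogenital mesenchyme, was at 86.4 against 4.66 CPM (3.99, interval 3.48 to 4.49) in 13 cells. Edn3, the endothelin ligand needed by migrating enteric neural crest, was at 66.1 against 7.25 CPM (2.99, interval 2.42 to 3.56) in 13 cells. Car2, a carbonic anhydrase, was at 58.5 against 14.9 CPM (2.60, interval 2.00 to 3.20) in 7 cells. More abundant genes followed: the growth factor Ptn at 582 against 206 CPM (1.49), Plagl1 at 1.43, Atrnl1 at 1.40, the semaphorin receptor Nrp2 at 1.32, Psd at 1.29 and Foxp1 at 1.23.

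Among the lower genes, Thbs1, a secreted matrix glycoprotein, was at 12.7 against 66.6 CPM (-2.41, interval -3.68 to -1.15), and the chemokine Cxcl13 at 38.1 against 181 CPM (-2.27, interval -2.996 to -1.54). Enho at -2.09, Fibin at -2.01, Ier3 at -1.97, Atg12 at -1.88, the collagen cross-linking enzyme Lox at -1.76, the cytokine receptor subunit Il6st at -1.58, Lama4 at -1.54 and Cebpd at -1.48 completed the list. A further 2 genes were picked after their values were seen. Gdnf, the ligand that draws enteric neural crest into the gut, was at 78.8 against 12.0 CPM (2.54, interval 2.03 to 3.06) in 16 cells. Hand1, a transcription factor of gut mesenchyme, was at 61.0 against 7.05 CPM (2.72, interval 2.13 to 3.31) in 12 cells, with 0 UMIs in the 6 cells of ending B.

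**Figure D5:**
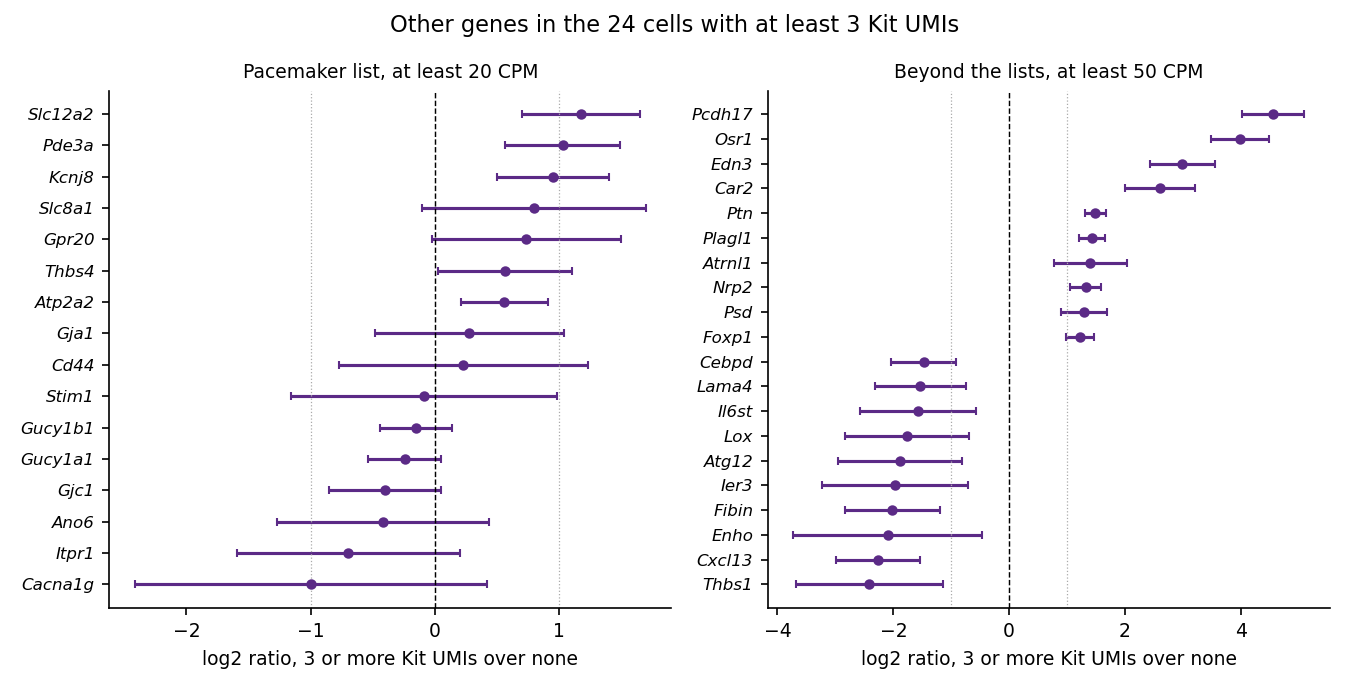
Log2 ratio (horizontal axes) of cells with at least 3 Kit UMIs over cells without Kit, within barcode sets, for the pacemaker list genes of at least 20 CPM (left) and the named genes beyond the lists (right); bars are 95% intervals for counting error and dotted lines mark 2-fold. Slc12a2 and Pde3a pass 2-fold on the left, and Pcdh17, Osr1 and Edn3 lead on the right at 4.55, 3.99 and 2.99.

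Kitl was seen more often in cycling cells, taken as those with a Mki67 or Top2a UMI at 2000 UMIs. Among Kitl cells, 43.1% were cycling against 31.0% of cells without Kitl, an odds ratio within sets of 1.26 (1.08 to 1.46). A2 went the other way, with 39.9% against 46.4%. For Etv1 the odds ratio was 1.11 (1.00 to 1.23), for Kit 1.11 (0.76 to 1.62) and for Ano1 0.80 (0.55 to 1.17).

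As a description over clusters of at least 50 cells (15 in ending A and 11 in ending B), the genes most like each of the 4 were ranked by the lower of the Pearson correlations of log2(CPM + 1) in the endings. The clusters share libraries and differ in depth. For Ano1 these were Angptl6 (0.81), Smad7 (0.80), the Hedgehog inhibitor Hhip (0.76), Pop5 (0.75) and Rnf115 (0.75). For Kitl they were Vstm4 (0.87), Rap2a (0.76), Adgrl2 (0.76), Stbd1 (0.74) and Cntln (0.74). Etv1 was most like the actin-binding gene Cald1 (0.77), Gadd45a (0.76), Apela (0.73), Has2 (0.73) and Wasf1 (0.72). Kit was matched less closely, by Mrps18c (0.60), Prmt3 (0.58), Mrps12 (0.57), Ncbp3 (0.55) and Oser1 (0.55), none of them on the pacemaker list. Between members, Kitl and Etv1 had correlations of -0.66 in ending A and -0.25 in ending B, and Kit and Ano1 of 0.52 and 0.24. Kit and Etv1 were at 0.19 and 0.13, and Ano1 and Etv1 at -0.0094 and -0.13. Those of Kitl with Kit and with Ano1 changed sign between endings. All values in ending B were weak and rest on 11 clusters.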

How the data were processed

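The submitters' processing notes name the mm10 build, Cell Ranger 2.1.1 and Seurat without roles; the authors' cell filter is not given in the sources used here. The deposited matrix holds raw UMI counts per gene symbol and barcode, per the file headers, with no identifiers. Members and gene lists were chosen with earlier results of these data known. Cells with under 1000 genes (108) or over 5% mitochondrial UMIs (367) and called doublets were left out. Scrublet in scanpy 1.11.5 marked 61 doublets (0.465%), a share so low that the caller cannot be relied on, and doublets may remain. Clusters (leidenalg 0.10.2, resolution 1, 2000 variable genes) were made in each ending. A cluster needed 3 markers at 4-fold, or at 2-fold for PDGFRA-high mesenchyme, and mesenchyme needed 3 markers at 100 CPM. A cell type other than mesenchyme also needed a marker among the leading genes of the cluster. If such a cluster had 3 mesenchyme markers at 100 CPM, it stayed unnamed.

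CPM carry exact Poisson intervals, shares Clopper-Pearson intervals (scipy 1.17.1). Odds ratios and rate ratios are Mantel-Haenszel values over the sets. They were checked on simulated data with more frequent genes and larger classes than the rarest here, which that check does not cover. Thinning drew UMIs without replacement; 41 cells were under 2000 UMIs. With 1 pooled matrix there are no replicates, so no test was run and no p is given. A count of 0 was taken to allow 3 counts. Named were the 4 members; of each list the largest and smallest ratios at 20 CPM, up to 3 each way; beyond the lists the 10 largest and 10 smallest at 50 CPM with the same sign in every set; and 5 genes most like each member. Cells with at least 3 Kit UMIs, pairs with Kitl, class ratios, depth bins, 10000 UMIs and second draws were added after seeing the data.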

Additional observations from a re-analysis of the deposited data

How the results depend on the processing

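No paired analysis was possible because the pooled matrix carries no sample or replicate numbers. Of 276 values recomputed under alternatives, 241 stayed within the interval of the value reported or within 1.5 times a count, 35 moved further, and 0 whose interval excluded 0 changed sign. For those that moved the cause was not tested, except where fewer cells or genes entered. Of the log2 ratios of PDGFRA-high over other mesenchyme, Kitl was -1.099 with 1000 variable genes, and Etv1 was -0.13 at resolution 2 and between -0.15 and 0.092 when each set was left out in turn. Weighting sets equally gave 5.30 CPM for Kit, 35.4 for Kitl and 100.1 for Etv1. The odds ratio of Kit and Etv1 was 1.24 with depth bins. At 10000 UMIs it was 1.21 and in a second draw 1.31. There it was 1.07 without the Kit-rich cells, 1.27 in other mesenchyme and 1.21 with set and cluster strata. In cells with several pacemaker genes, the pacemaker list had a log2 ratio of 0.24 at 1000 UMIs. The smooth muscle list was at 0.21 at 1000 UMIs, 0.20 at 3000 and 0.17 to 0.44 over sets left out. With all 3 genes required (1 cell), the pacemaker, KIT signal, ETS and smooth muscle lists were at -0.59, 0.28, -0.28 and 0.77. Genes past 2-fold numbered 149 in cells with several genes (965 at 5 CPM and 22 at 50 CPM) and 453 in Kit-rich cells (1798 and 125). In Kit-rich cells the Etv1 ratio was 1.15 with at least 2 Kit UMIs, 0.14 with exactly 1, and 1.52 to 2.23 over sets left out. With exactly 1 Kit UMI, Ano1 was at 0.64 and the pacemaker list at 0.0079, which was 0.12 to 0.29 over sets left out of the main class. Outside the main results, the odds ratio of Etv1 and Kitl was 1.43 at 1000 UMIs and 1.23 at full depth. Depth limits the pair Kit and Ano1: at 2000 UMIs, 1 cell held both. Its odds ratio was 0.59 there, but 3.08 at 1000 UMIs and 1.60 at 3000, on the other side of 1. These values counted as within the interval because it ran from 0.08 to 4.33, which does not show that the result is stable. An odds ratio that crossed 1 was not counted as a change of sign.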
